A study of Mus musculus with 6 samples.

Results

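The 35 genes described here encode glutamate receptor subunits and the auxiliary proteins that travel with them. They were taken by name from a table of 24841 genes, and all 35 were listed. Their values were read in single nuclei of dissected, flash-frozen striatum. There were 2 genotypes, wild type and heterozygous for Celsr3, the gene of an adhesion receptor of the cadherin family, with 3 biological replicates and 3 libraries each. Both groups are named in the labels by genotype alone, with no allele, strain, sex, age or litter, and no treatment is named for either. Libraries were made with 10x Genomics droplet chemistry that reads the 3′ end of transcripts, and all 6 were sequenced on the same lane. Nothing states that the replicates came from separate litters or preparations, and p values measure the spread between these 6 libraries.

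Fast glutamate transmission runs through AMPA, NMDA and kainate receptors, ion channels built from subunits of the Gria, Grin and Grik families, while metabotropic receptors of the Grm family act through G proteins. Auxiliary subunits of the Cacng (TARP), Shisa (CKAMP), Cnih (cornichon) and Neto families bind these channels and change their trafficking and gating. The striatum receives glutamate from cortex and thalamus, and its principal cells are medium spiny neurons (MSN) that carry either the D1 or the D2 dopamine receptor.

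A value here is the UMI number of a gene in a nucleus after correction for depth, and a level is its mean per nucleus in 1 library and cell class. Because longer genes can give more reads in nuclei, a level is compared only for the same gene across classes or libraries. Totals per nucleus were nearly alike after the correction (CV 10.7%), so a level is close to a share of the UMIs of a nucleus. Where classes differ in RNA content, their order by amount of RNA per nucleus can differ from the order given here. Of 48834 nuclei, 48089 were kept, 7625 to 8726 per library. Nuclei were clustered and clusters were called X-like from marker genes, none of which was a member. Of the named classes, 14 held 20 or more nuclei in each library, among them 7285 D1 and 7073 D2 MSN-like nuclei, and 12.4% of the kept nuclei stayed unnamed. Glutamatergic neuron-like nuclei, a cell type of cortex and thalamus, made up 3.55% to 19.9% of a library. Because members could take part in the clustering, differences between classes are given as descriptions with no test, although 98.9% of nuclei kept their class when the members were left out of it. Celsr3 itself stood lower in every heterozygous library than in every wild-type library in D1 MSN-like nuclei, at 0.150, 0.171 and 0.185 against 0.0824, 0.103 and 0.0971 (log2 change -0.78 ± 0.13 SE, limma adjusted p = 0.137). In D2 MSN-like nuclei it stood at 0.112, 0.154 and 0.130 against 0.0641, 0.0857 and 0.0927 (-0.65 ± 0.17, limma adjusted p = 0.283), and over all nuclei at 0.0745, 0.0992 and 0.108 against 0.0612, 0.0694 and 0.0646 (-0.45 ± 0.14, limma adjusted p = 0.456). The groups did not overlap in any of these 3 populations, and none of the 3 differences passed the adjustment over all genes.

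Highest levels fell in a neuronal class for 27 of the 35, led by GABAergic interneuron-like nuclei with 8 members, D2 MSN-like with 7 and D1 MSN-like with 5. The other 8 were highest in glial or vascular classes. For 13 of the 35 the lowest library of the leading class lay above the highest library of the class ranked next, and for the other 22 the leading classes overlapped. With size factors computed over classes and libraries together, which also rescale classes against each other, 32 of 35 kept their highest class. Gria1, Grik2 and Grm4 moved to eccentric MSN-like, committed precursor-like and D2 MSN-like nuclei.

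**Figure D1:**
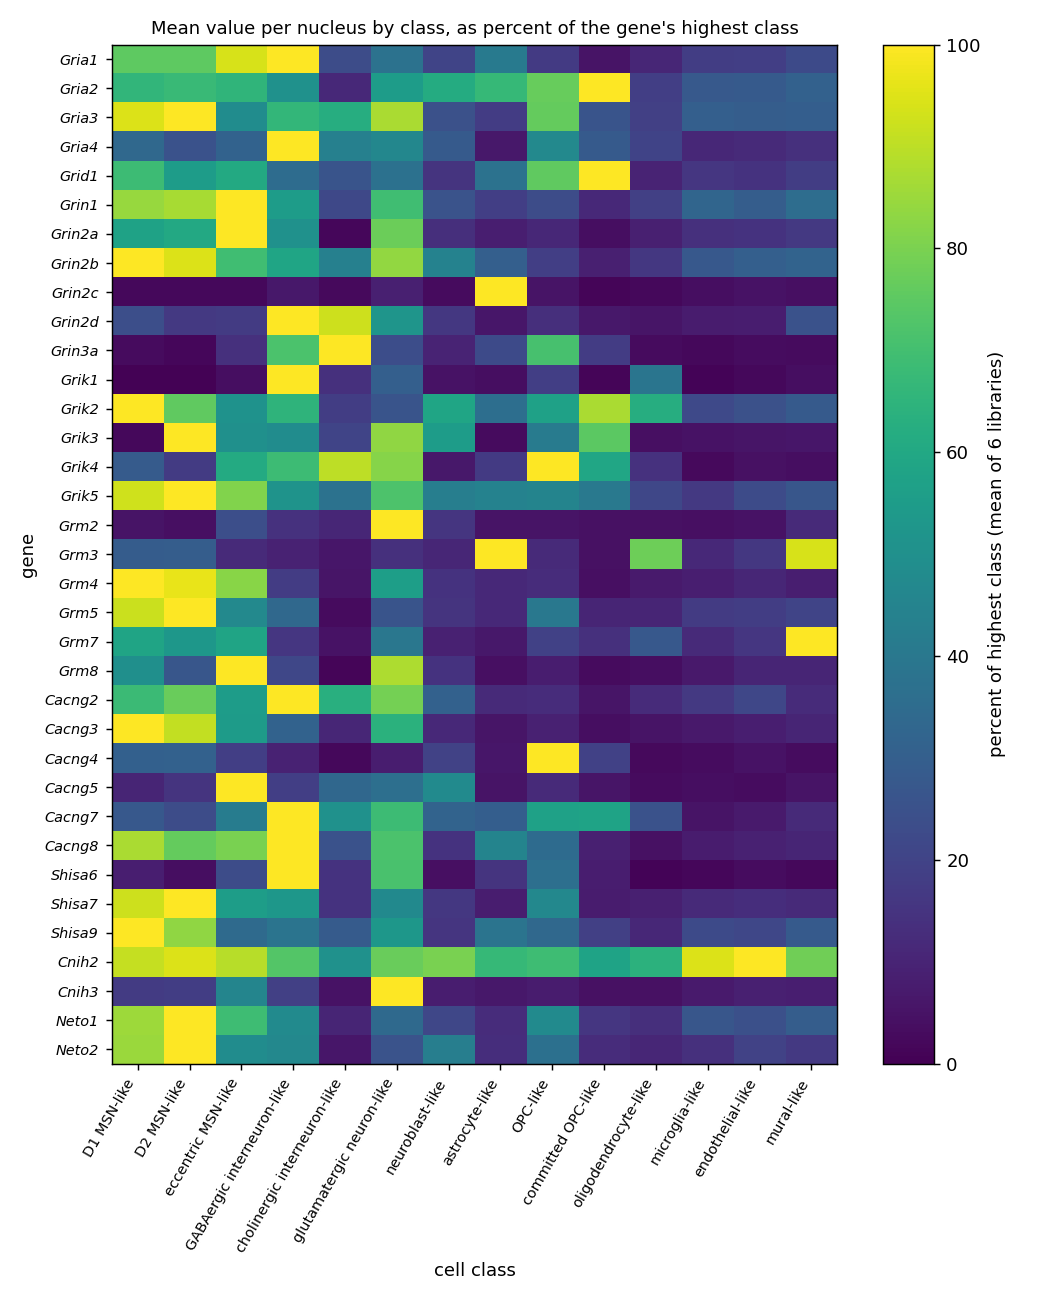
Level of each of the 35 members (rows) in the 14 cell classes (columns), as percent of the gene's own highest class, mean of 6 libraries. Most rows are brightest on the left among neurons, while Grin2c stands out in astrocyte-like, Cacng4 in OPC-like and Grm7 in mural-like nuclei, and Cnih2 is bright throughout.

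AMPA receptor subunits differed in where they were highest. Gria4 had its highest level per nucleus in GABAergic interneuron-like nuclei, at 13.7 ± 1.08 (SD, n = 6), which was 2.12 times the level in oligodendrocyte precursor (OPC)-like nuclei, and the ranges of 11.98 to 14.94 and 5.054 to 7.253 did not overlap. Gria1 was also highest there, at 11.9 ± 1.20, but overlapped eccentric MSN-like nuclei at 11.2 ± 2.15. Gria2, whose edited subunit keeps calcium out of the channel, was highest in committed oligodendrocyte precursor-like nuclei, at 15.2 ± 2.29, followed by OPC-like nuclei at 11.6 ± 0.664 and D2 MSN-like nuclei at 10.3 ± 1.05, neighbours whose ranges overlapped. Oligodendrocyte-like nuclei stood far lower at 2.83 ± 0.487, and Gria2 was lowest in cholinergic interneuron-like nuclei, at 1.78 ± 0.369. Gria3 was highest in D2 MSN-like nuclei, at 5.60 ± 0.192, and overlapped D1 MSN-like nuclei at 5.31 ± 0.119. Grid1, a delta receptor that organises synapses, was highest in committed precursor-like nuclei at 7.63 ± 0.780 and apart from OPC-like nuclei at 5.75 ± 0.480.

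Among NMDA receptor subunits, Grin2c had the highest ratio of first to second class of all 35 members. It stood at 1.06 ± 0.209 (SD, n = 6) in astrocyte-like nuclei, between 0.820 and 1.32 in the 6 libraries. The next class, glutamatergic neuron-like, reached 0.0909 ± 0.0420, so the astrocyte-like level was 11.6 times as high and no library overlapped. Grin1, the subunit every NMDA receptor needs, was highest in eccentric MSN-like nuclei at 3.86 ± 0.124. Grin2a was highest there as well, at 11.4 ± 0.489, apart from glutamatergic neuron-like nuclei at 8.87 ± 1.51, and was 51.8 times lower in cholinergic interneuron-like nuclei at 0.220 ± 0.0988. Grin2b was highest in D1 MSN-like nuclei, at 11.1 ± 0.537, within range of D2 MSN-like nuclei at 10.6 ± 0.489. Grin2d was shared by GABAergic and cholinergic interneuron-like nuclei, at 0.380 ± 0.0665 and 0.351 ± 0.0391. Grin3a, a subunit that lowers calcium entry, was highest in cholinergic interneuron-like nuclei at 3.73 ± 0.424, apart from GABAergic interneuron-like nuclei at 2.68 ± 0.229, and lowest in D2 MSN-like nuclei at 0.0595 ± 0.00590.

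Grin2c and Grm2 are shown by the bases that precede their annotated starts because they had the 2 highest ratios of first to second class, 11.6 and 4.17, Grm2 in glutamatergic neuron-like nuclei. The stretch runs from 250 to 101 bases before the start in RefSeq's promoter table on GRCm38.p6, lies outside the annotated gene and is written 5′ to 3′ on the minus strand, with motif matches in capitals. For Grin2c it is chr11:115267344-115267493 and for Grm2 chr9:106656210-106656359. The start taken for Grin2c lies inside the annotated gene, whose outer end is at 115267297, so the stretch is closer to that end.
Grin2c: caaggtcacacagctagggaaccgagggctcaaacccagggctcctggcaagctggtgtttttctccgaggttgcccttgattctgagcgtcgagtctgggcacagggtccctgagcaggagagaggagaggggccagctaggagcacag
Grm2: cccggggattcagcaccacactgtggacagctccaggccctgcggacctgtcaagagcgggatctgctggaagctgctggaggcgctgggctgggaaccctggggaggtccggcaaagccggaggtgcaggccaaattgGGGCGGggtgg
The letters GGGCGG (GC box), TGACGTCA (cyclic AMP response element) and CANNTG (E-box) were searched on both strands. Grm2 held 1 GC box and Grin2c none of the 3. Of 32851 windows of the same 150 bases, 16.7% held a GC box, 0.371% a cyclic AMP response element and 49.3% an E-box.

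Kainate receptor subunits had 4 different classes of highest level: D2 MSN-like for 2 of the 5 subunits, and GABAergic interneuron-like, D1 MSN-like and OPC-like for 1 each. Grik1 stood at 6.31 ± 1.41 (SD, n = 6) in GABAergic interneuron-like nuclei, apart from the next class, oligodendrocyte-like, at 2.46 ± 0.995, and 140 times above D2 MSN-like nuclei at 0.0450 ± 0.0133. Grik3 was highest in D2 MSN-like nuclei, at 1.88 ± 0.128, and overlapped glutamatergic neuron-like nuclei at 1.57 ± 0.287. Its lowest level of all 14 classes was in D1 MSN-like nuclei, at 0.0438 ± 0.00246. Grik2 was highest in D1 MSN-like nuclei, at 16.5 ± 0.782, and overlapped committed precursor-like nuclei at 14.5 ± 1.95. Grik4 led in OPC-like nuclei at 1.77 ± 0.448 with cholinergic interneuron-like nuclei at 1.60 ± 0.436 inside the same range. OPC-like was its highest class in only 2 of the 6 libraries, and heterozygous replicate 1 held only 37 OPC-like nuclei. Grik5 was highest in D2 MSN-like nuclei, at 1.23 ± 0.0847, and overlapped D1 MSN-like nuclei at 1.14 ± 0.0847.

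Metabotropic receptors ran from MSN genes to glial and vascular ones. Grm5, the postsynaptic receptor coupled to Gq, stood at 27.2 ± 1.20 in D2 and 24.95 ± 1.143 in D1 MSN-like nuclei (SD, n = 6), and every library of both lay above the third class, eccentric MSN-like, at 12.8 ± 1.41. Grm3 was shared by astrocyte-like, mural-like and oligodendrocyte-like nuclei, at 11.5 ± 2.27, 10.8 ± 1.60 and 8.99 ± 0.359, with every library above the MSN classes. Grm7 was highest in mural-like nuclei, at 26.8 ± 4.97, with its lowest library at 22.2 and D1 MSN-like nuclei next at 15.7 ± 1.08. Grm8 was highest in eccentric MSN-like nuclei at 5.26 ± 2.15, a wide range that held glutamatergic neuron-like nuclei at 4.62 ± 0.704. Grm4 was level between D1 and D2 MSN-like nuclei, at 0.566 ± 0.0827 and 0.546 ± 0.0577. Grm2 was highest in glutamatergic neuron-like nuclei, at 0.121 ± 0.0639, apart from eccentric MSN-like nuclei at 0.0289 ± 0.00911.

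Auxiliary subunits split by family member. Among TARPs, Cacng4 stood at 3.16 ± 0.577 (SD, n = 6) in OPC-like nuclei, 3.22 times the next class, D2 MSN-like, at 0.982 ± 0.110, with no overlap. Cacng2, Cacng7 and Cacng8 were highest in GABAergic interneuron-like nuclei, at 1.15 ± 0.106, 0.702 ± 0.0633 and 0.536 ± 0.0663, of which only Cacng7 was apart from the next class. Cacng3 was highest in D1 MSN-like nuclei, at 1.79 ± 0.679, and Cacng5 in eccentric MSN-like nuclei at 0.489 ± 0.142. Shisa6 was highest in GABAergic interneuron-like nuclei at 1.75 ± 0.285, Shisa7 in D2 MSN-like nuclei at 0.679 ± 0.0752, and Shisa9 in D1 MSN-like nuclei at 4.64 ± 0.345, apart from D2 MSN-like nuclei at 3.87 ± 0.240. The cornichons behaved unlike each other. Cnih3 stood at 0.599 ± 0.0447 in glutamatergic neuron-like nuclei, apart from eccentric MSN-like nuclei at 0.273 ± 0.0793, whereas Cnih2, highest in endothelial-like nuclei at 0.234 ± 0.0160, differed only 1.97-fold between its highest and lowest class. The kainate receptor partners Neto1 and Neto2 were highest in D2 MSN-like nuclei, at 4.64 ± 0.230 and 2.25 ± 0.270, and lowest in cholinergic interneuron-like nuclei at 0.477 ± 0.362 and 0.138 ± 0.0728.

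In droplet data, free RNA gives UMIs in cells that do not express a gene. The 6 genes Drd1, Drd2, Penk, Adora2a, Rgs9 and Rarb, known from MSN, reached at most 12.6% of their higher MSN level in committed precursor-like nuclei and 27.9% in mural-like nuclei, with the other non-neuronal classes between. The 6 are a choice by name, and the 10 shared MSN markers reached higher shares of their D1 MSN-like level. Their median was 8.96% in committed precursor-like and 28.3% in mural-like nuclei, and their highest 54.6% and 125%. In OPC-like nuclei these 10 summed to 43.5 in heterozygous replicate 1, on 37 nuclei, against 19.2 to 22.9 in the other libraries. Whether such values come from free RNA or from expression was not tested. No such share was measured for free RNA from other classes, and its part in the low levels of members was not tested.

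Set against each other in the same library, D1 and D2 MSN-like nuclei differed in the same direction in 6 of 6 libraries for 22 members: 13 were higher in D1 and 9 in D2. With size factors computed over classes and libraries together, 20 of the 22 kept their sign in every library, and Grin2b and Cacng8 did not. The balance changed with these factors: of all 35 members, 11 were then higher in D1 in every library and 13 in D2. Only 4 of the 35 had a median ratio beyond 1.5-fold. Grik3 (chromosome 4, 125490259 to 125714173) was 43 times higher in D2 MSN-like nuclei by its mean levels. Its log2 ratio of D1 over D2, taken after adding 0.01 to each level as for the other log2 ratios of D1 over D2, lay between -5.34 and -4.92 with a median of -5.13. The ranges, 0.0414 to 0.0478 in D1 and 1.74 to 2.10 in D2, were far apart.

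**Figure D2:**
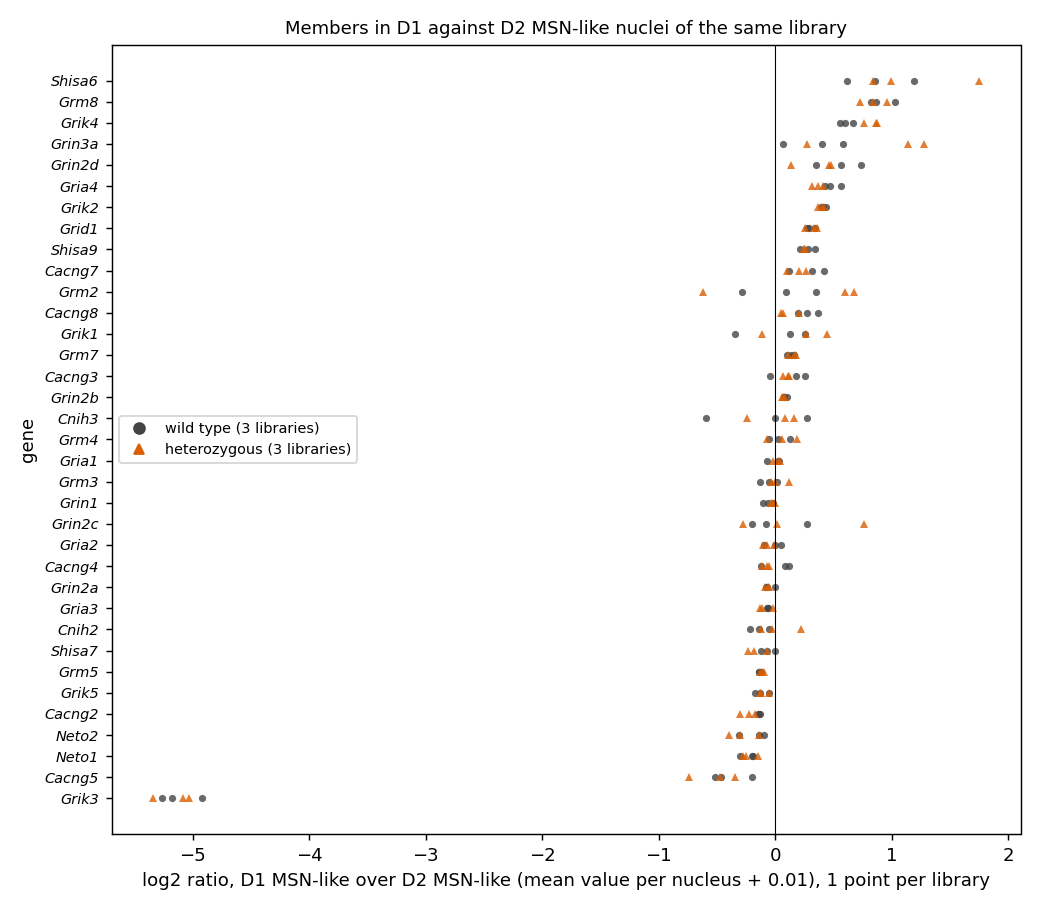
Log2 ratio of the level in D1 over D2 MSN-like nuclei (x axis) for each member (y axis), 1 point per library, circles wild type and triangles heterozygous. Grik3 lies near -5.13 in all 6 libraries, and Shisa6, Grm8 and Grik4 lie furthest on the D1 side.

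On the D1 side, Shisa6 had a median log2 ratio of 0.92, from 0.61 to 1.75, and Grm8 one of 0.85, from 0.73 to 1.03. Grik4 had a median of 0.71, from 0.55 to 0.87. Grin3a followed at 0.49, from 0.06 to 1.28, and Grin2d at 0.47, from 0.14 to 0.73. On the D2 side, after Grik3, Cacng5 had a median of -0.47, from -0.74 to -0.20. Neto1 stood at -0.23, from -0.31 to -0.15, Neto2 at -0.22, from -0.40 to -0.09, and Cacng2 at -0.16, from -0.30 to -0.13. Gria1 and Gria2 had no common direction over the 6 libraries.

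Both MSN classes held 2 clusters, and several members differed more between these than between D1 and D2. D1 MSN-like cluster 12, led by Drd3, exceeded cluster 0 by 4.71-fold for Grin3a (0.287 ± 0.174 against 0.0609 ± 0.0119, SD, n = 6), 2.95-fold for Grik4 and 2.73-fold for Cacng5, while Neto2 was 1.67 times higher in cluster 0. In D2 MSN-like nuclei, cluster 8 exceeded cluster 1 by 7.12-fold for Shisa6 (0.218 ± 0.0689 against 0.0306 ± 0.00638), 5.02-fold for Cacng5 and 1.99-fold for Neto1. Grm8 went the other way, 3.42 times higher in cluster 1, as did Grid1 at 1.92 times. The library ranges of each of these pairs did not overlap. Between the larger clusters, D1 cluster 0 and D2 cluster 1, Neto1 was 3.85 ± 0.235 and 3.91 ± 0.2105. Cacng5 there was 0.0393 ± 0.0123 and 0.0411 ± 0.0177, and Grin3a 0.0609 ± 0.0119 and 0.0603 ± 0.00369, each with overlapping ranges. Grik3, at 0.0418 ± 0.00343 and 1.91 ± 0.125, and Shisa6, at 0.130 ± 0.0262 and 0.0306 ± 0.00638, stayed apart there.

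Other classes were as uneven inside. Astrocyte-like cluster 7, whose top genes included Slc6a11 and Agt, carried Gria1 at 13.1 ± 2.80 (SD, n = 6), against 1.50 ± 0.192 in cluster 4 and 1.81 ± 0.321 in cluster 19, where Gfap was a top gene. Grm3 and Grin2c were reversed, with cluster 4 at 16.6 ± 2.38 and 1.48 ± 0.203 and cluster 7 at 4.48 ± 0.322 and 0.457 ± 0.121. Among GABAergic interneuron-like nuclei, Grik1 stood at 10.6 ± 1.37 in cluster 22 and 1.12 ± 0.355 in cluster 24, and Grin3a was highest, at 5.11 ± 0.533, in cluster 29, led by Nos1 with Npy and Sst among its top genes. Grik3 in glutamatergic neuron-like nuclei ranged from 0.0799 ± 0.0720 (n = 5) in cluster 11 to 3.87 ± 0.522 in cluster 15.

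Genotype was then compared within each population with limma on log2 levels. No member was called in any of the 15 populations at an adjusted p under 0.05. Of all genes tested, 0.00764% were called in D1 MSN-like nuclei (1 of 13081), 0.00786% in D2 MSN-like nuclei (1 of 12723) and 0% over all nuclei (0 of 14398) and in each other class. At an unadjusted p under 0.05 there were 3 of 33 members tested in D1 MSN-like nuclei, 2 of 33 in D2 MSN-like nuclei and 1 of 34 over all nuclei, where 10.5%, 8.64% and 9.95% of all genes passed. These counts moved with single libraries. Leaving out 1 library gave 0 (without heterozygous replicate 1) to 6 (without wild-type replicate 1 or heterozygous replicate 3) in D1, 1 (without heterozygous replicate 2) to 5 (without wild-type replicate 1) in D2, and 0 (without wild-type replicate 3 or heterozygous replicate 2) to 4 (without wild-type replicate 1) over all nuclei. The share of all genes then ran from 5.82% to 17.4%, 5.56% to 13% and 5.1% to 11.7%. Array weights, which let limma count uneven libraries less, gave 9, 8 and 6 members beside 25.2%, 21.7% and 23.7% of all genes. Library ranges of the genotypes did not overlap for 1, 3 and 3 members, beside 17%, 14.7% and 19.3% of all genes. The median log2 change of the members was 0.01 in D1 and 0.03 in D2 MSN-like nuclei, beside 0.06 and 0.04 for all genes tested.

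**Figure D3:**
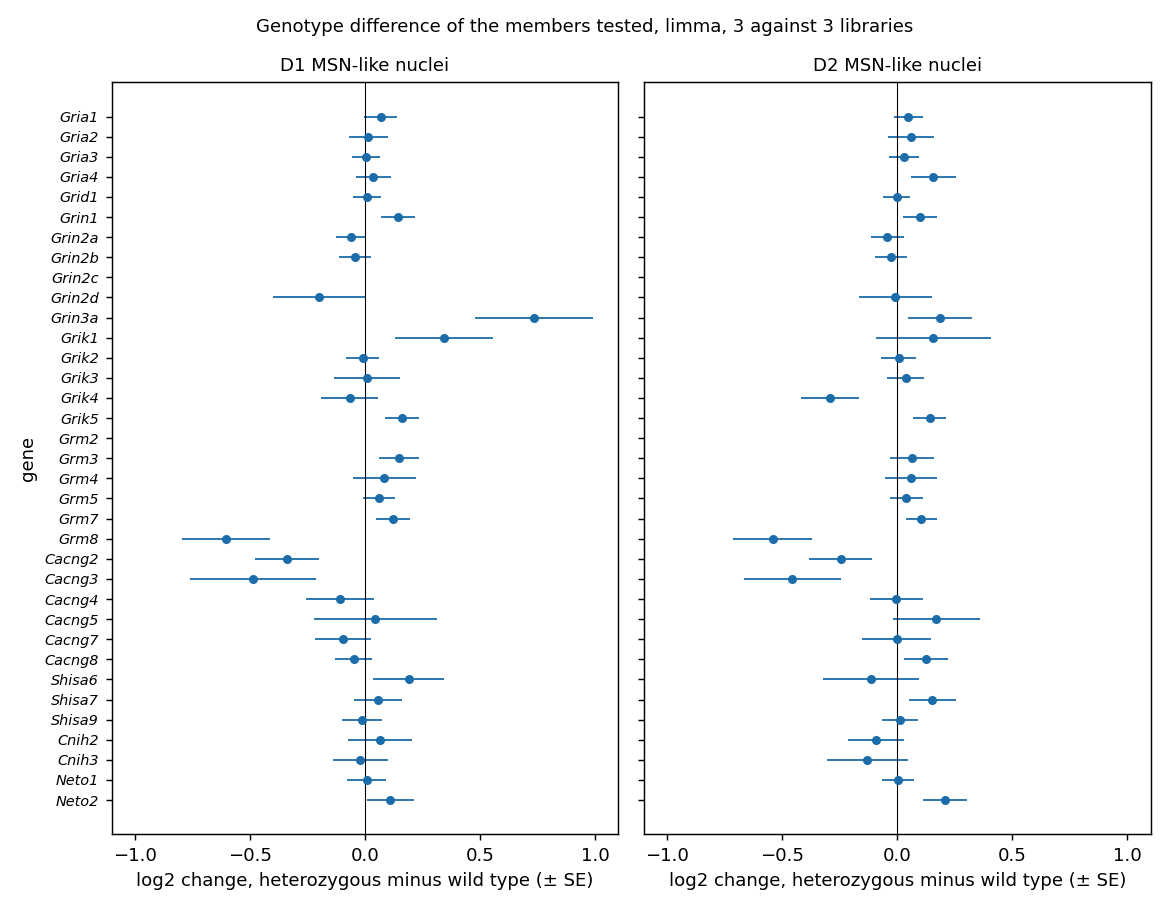
Log2 change, heterozygous minus wild type (x axis, ± SE), of each member tested (y axis) in D1 and D2 MSN-like nuclei, 3 libraries per genotype. Most members lie near 0, with Grm8, Cacng3 and Cacng2 furthest to the left in D1 MSN-like nuclei and Grin3a furthest to the right, none past the adjustment.

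Grm8 (chromosome 6, 27275121 to 28135146), a presynaptic receptor that lowers transmitter release, had the smallest p among members in both MSN classes. In D1 MSN-like nuclei its levels were 3.70, 2.92 and 2.81 in wild-type libraries and 1.61, 1.88 and 2.84 in heterozygous ones. Heterozygous replicate 3 lay inside the wild-type range and the other 2 below it (log2 change -0.60 ± 0.19 SE, limma adjusted p = 0.361). In D2 MSN-like nuclei the levels were 1.81, 1.60 and 1.58 against 0.967, 0.960 and 1.58, and heterozygous replicate 3, at 1.581, was just below the lowest wild-type library, at 1.582 (-0.54 ± 0.17, limma adjusted p = 0.392). The clusters of lower Grm8 held more of the class in the 2 low libraries: cluster 12 made up 18.9% and 25.6% of D1 MSN-like nuclei in heterozygous replicates 1 and 2 against 13.7% to 16.1% in the other 4 libraries, and cluster 8 made up 23.2% and 22.3% of D2 MSN-like nuclei against 14.7% to 19.2%. Within each cluster, levels were lower on average in heterozygous libraries, and the part of the cluster mix was not tested. In D1 the change was -0.47 in cluster 0, at 3.66, 3.22 and 3.05 against 1.90, 2.32 and 3.05. The groups there did not overlap, but replicate 3 was 3.05 in both genotypes to the digits kept. In cluster 12 the change was -1.37, with wild-type replicate 1 at 3.93 and the other 5 libraries at 0.373 to 1.55. In D2 it was -0.45 in cluster 1, with overlap, and -1.04 in cluster 8, without overlap.

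Grin3a in D1 MSN-like nuclei stood at 0.0829, 0.0539 and 0.0853 in wild-type and 0.163, 0.153 and 0.0824 in heterozygous libraries (0.73 ± 0.25, limma adjusted p = 0.395). Heterozygous replicates 1 and 2 were high, and they also held the most of the Drd3-led cluster 12, in which Grin3a is higher, at the shares just given. Within cluster 12 the levels were 0.193, 0.139 and 0.238 against 0.598, 0.378 and 0.174, a change of 0.84, and within cluster 0 the change was 0.31. The genotypes overlapped in both clusters, and the part of the cluster mix was not tested.

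Cacng2 (stargazin, the founding TARP) and Cacng3 shared a pattern over libraries. Cacng2 in D1 MSN-like nuclei stood at 0.697, 0.986 and 0.964 against 0.665, 0.633 and 0.770 (-0.34 ± 0.14, limma adjusted p = 0.447). Cacng3 stood at 1.20, 2.89 and 2.32 against 1.23, 1.42 and 1.66 (-0.49 ± 0.27, limma adjusted p = 0.556), and in D2 MSN-like nuclei at 1.23, 2.42 and 2.05 against 1.18, 1.31 and 1.53 (-0.46 ± 0.21, limma adjusted p = 0.588). Wild-type replicate 1 lay within or just below the heterozygous range, and the other 2 wild-type libraries lay above all of them. Cacng3 was singled out after its values were seen. With limma array weights Cacng2 in D1 passed the adjustment (-0.48, limma adjusted p = 0.0495). Without wild-type replicate 1, Cacng2 in D1 (-0.50, limma adjusted p = 0.0311) and Cacng3 in D1 (-0.86, limma adjusted p = 0.0120) and D2 (-0.74, limma adjusted p = 0.0143) passed the adjustment. In these alternatives the calls over all genes rose as well from 1 in each class. They reached 204 in D1 with array weights (1.56%), and 212 in D1 (1.62%) and 135 in D2 (1.06%) without wild-type replicate 1. Leaving out any other library called no member in D1 or D2 MSN-like nuclei.

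**Figure D4:**
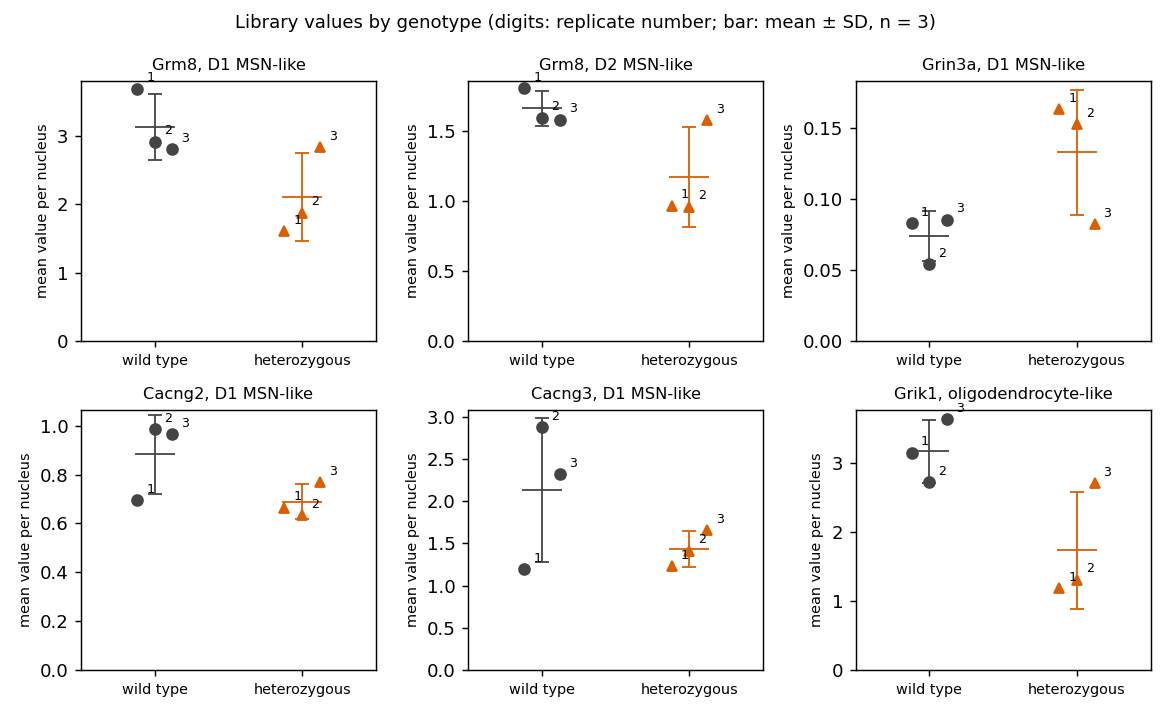
Level in each library (y axis) by genotype for Grm8, Grin3a, Cacng2, Cacng3 and Grik1 in the named class, with mean ± SD (n = 3) and replicate numbers beside the points. Heterozygous replicate 3 sits close to wild type for Grm8, Grin3a and Grik1, and wild-type replicate 1 sits with the heterozygous libraries for Cacng2 and Cacng3.

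Grik4, a kainate subunit of high affinity, had differences of unlike sign by population. In D2 MSN-like nuclei it stood at 0.384, 0.329 and 0.306 against 0.245, 0.319 and 0.265, overlapping (-0.29 ± 0.13, limma adjusted p = 0.561). Over all nuclei it was 0.520, 0.509 and 0.527 against 0.565, 0.633 and 0.582, without overlap (0.19 ± 0.07, limma adjusted p = 0.477), a population in which the class mix differs between libraries. In eccentric MSN-like nuclei it was 1.11, 1.22 and 1.31 against 0.894, 1.06 and 0.897, without overlap (-0.36 ± 0.13, limma adjusted p = 0.834), where 2 of 32 members had an unadjusted p under 0.05 beside 5.19% of all genes, and 2 did not overlap beside 10.8%. The count there was 6 without wild-type replicate 2 (6.39% of all genes) and 0 without wild-type replicate 3 (4.38%) or heterozygous replicate 1 (4.37%).

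Marker lists of the cell types were summed in the same populations. Of the 19 marker lists, 1 did not overlap between genotypes over all nuclei, 2 in D1, 4 in D2 and 1 in eccentric MSN-like nuclei. Summed microglia markers, 11 genes, were lower in heterozygous libraries at 3.40 to 3.73 against 4.01 to 4.76 over all nuclei, 1.08 to 1.11 against 1.21 to 1.28 in D1 and 0.918 to 0.989 against 1.04 to 1.11 in D2. Committed precursor markers, 9 genes, were lower in D1 (1.33 to 1.53 against 1.54 to 1.57) and in eccentric MSN-like nuclei (1.73 to 2.17 against 2.20 to 2.36). In D2, markers of astrocytes (12 genes, 1.59 to 1.74 against 1.78 to 2.10) and border-associated macrophages (7 genes, 0.239 to 0.272 against 0.274 to 0.291) were lower, and the 10 shared MSN markers were higher (155.3 to 165.1 against 147.6 to 153.9). Oligodendrocyte markers, 12 genes, overlapped between genotypes but were low in heterozygous replicates 1 and 2, which also stood apart for Grm8 and Grin3a in D1. In D1 they summed to 5.72, 5.24 and 5.04 against 3.27, 3.59 and 6.34. In D2 they summed to 6.22, 5.95 and 5.77 against 3.93, 4.18 and 7.23. That list was singled out after its values were seen. The part of all these marker lists in the member values was not tested.

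In glia the largest difference with an unadjusted p under 0.05 was that of Grik1 (chromosome 16, 87895901 to 88290863) in oligodendrocyte-like nuclei. Its levels were 3.15, 2.73 and 3.64 in wild-type and 1.19, 1.31 and 2.71 in heterozygous libraries. The groups did not overlap, but heterozygous replicate 3 lay just under the lowest wild-type library (-0.96 ± 0.27, limma adjusted p = 0.570). Of the 3 clusters, cluster 3 had the highest level, at 5.85, 5.74 and 7.42 against 2.61, 2.73 and 4.56, also without overlap (-0.98). Cluster 3 made up 41.7%, 38.4% and 38.3% of the class in wild-type and 32.3%, 29.5% and 44.2% in heterozygous libraries, and the change was -0.62 in cluster 2 and 0.13 in cluster 16, both with overlap. In this class 1 of 31 members had an unadjusted p under 0.05 beside 5.39% of all genes, and 2 did not overlap beside 10.1%. Without heterozygous replicate 3 the change was -1.33 (limma adjusted p = 0.0109), with 3 of all genes called (0.0264%). The members with an unadjusted p under 0.05 then numbered 11 of 31, 10 of them higher in heterozygous libraries, beside 9.13% of all genes, and the median member change went from 0.07 to 0.25. Summed OPC markers, 10 genes, were higher in the heterozygous libraries, 3.39 to 3.62 against 3.01 to 3.34. Neither their part nor that of the cluster mix was tested.

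Grm7 in committed precursor-like nuclei was 7.46, 3.42 and 3.56 against 1.86, 2.02 and 3.86 (-0.88 ± 0.31, limma adjusted p = 0.627), with wild-type replicate 1 high. Without that library the change was -0.51 (limma adjusted p = 0.958). In the same nuclei Grik2 was 12.4, 13.51 and 13.02 against 17.4, 16.2 and 14.2 (0.29 ± 0.13, limma adjusted p = 0.808), without overlap. Grm7 in astrocyte-like nuclei was 1.45, 1.53 and 1.72 against 1.97, 2.00 and 1.63 (0.25 ± 0.11, limma adjusted p = 0.792), overlapping. The mix of that class was uneven: cluster 7 made up 4.82% of it in heterozygous replicate 1 and 43% in heterozygous replicate 2, against 21.1% to 32.7% in the other 4 libraries, and cluster 4 made up 83.4% in heterozygous replicate 1 against 43.4% to 64.3%. Gria1 in microglia-like nuclei was 1.92, 2.03 and 1.88 against 2.31, 2.61 and 2.07 (0.26 ± 0.10, limma adjusted p = 0.853), without overlap. In this class the 6 MSN genes named above reached at most 24.5% of their higher MSN level. The 10 shared MSN markers reached at most 117% of their D1 MSN-like level. The microglia markers themselves were lower in these nuclei, 47.6 to 58.9 against 63.0 to 66.4 over 11 genes, as were endothelial markers (10 genes, 0.244 to 0.315 against 0.337 to 0.376), and OPC markers were higher (10 genes, 3.02 to 3.43 against 2.79 to 2.94). In astrocyte-like nuclei endothelial markers were lower (0.146 to 0.152 against 0.158 to 0.177), and in committed precursor-like nuclei mural markers, 10 genes, were higher (0.313 to 0.517 against 0.200 to 0.253). The part of these shifts was not tested. Members at an unadjusted p under 0.05 numbered 2 of 18 in committed precursor-like (6.08% of all genes, on 29 to 93 nuclei per library), 1 of 32 in astrocyte-like (6.21%) and 1 of 24 in microglia-like nuclei (5.61%). Single libraries moved each count. In committed precursor-like nuclei it was 0 without wild-type replicate 1 (4.5% of all genes) and 3 without wild-type replicate 2 (7.66%) or heterozygous replicate 3 (9.23%), and 1 when any of the other 3 was left out. In astrocyte-like nuclei the 1 member was higher in heterozygous libraries, but without wild-type replicate 1 there were 3, all lower (7.5%), without heterozygous replicate 2 there were 0 (4.23%), and when any of the other 4 was left out there were 2. In microglia-like nuclei it was 6 without heterozygous replicate 3 (10.6%) and 0 without wild-type replicate 3 (5.06%), heterozygous replicate 1 (4.8%) or heterozygous replicate 2 (3.93%), and without wild-type replicate 1 the 1 member was lower (5.61%). Those without overlap numbered 2, 1 and 3, beside 11.7%, 12.1% and 10.3% of all genes.

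In vascular and neuroblast-like classes, Grm8 in endothelial-like nuclei was 0.580, 0.639 and 0.680 against 0.476, 0.465 and 0.466 (-0.42 ± 0.18, limma adjusted p = 0.977), and in neuroblast-like nuclei 0.614, 0.552 and 0.659 against 1.03, 0.964 and 0.763 (0.58 ± 0.18, limma adjusted p = 0.993). Shisa9 in mural-like nuclei was 1.26, 0.964 and 1.14 against 1.72, 1.39 and 1.38 (0.41 ± 0.19, limma adjusted p = 0.875). None of these 3 overlapped between genotypes and none passed the adjustment. Beside them, astrocyte markers were lower in neuroblast-like nuclei (12 genes, 7.94 to 8.64 against 9.58 to 10.06) and microglia markers in mural-like nuclei (0.923 to 1.21 against 1.23 to 1.61). In endothelial-like nuclei their own markers were lower (54.5 to 64.51 against 64.52 to 70.3) and OPC markers higher (2.92 to 3.69 against 2.72 to 2.89). The part of these markers was not tested. The unadjusted p was under 0.05 for 1 of 19 members in endothelial-like (3.12% of all genes), 1 of 24 in neuroblast-like (3.93%) and 1 of 14 in mural-like nuclei (4.84%), and 3, 2 and 2 did not overlap, beside 9.01%, 9.75% and 9.81%. Leaving out 1 library kept the count at 1 in neuroblast-like nuclei. It went to 0 in endothelial-like nuclei when any library but wild-type replicate 1 was left out, and in mural-like nuclei when any but wild-type replicate 1 or heterozygous replicate 2 was.

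Among the remaining neurons, Grin3a in cholinergic interneuron-like nuclei was 4.16, 3.88 and 4.24 against 3.44, 3.26 and 3.37 (-0.28 ± 0.12, limma adjusted p = 0.934), without overlap on 25 to 41 nuclei per library. Astrocyte markers, 12 genes, were lower in the same nuclei (0.605 to 1.15 against 1.73 to 2.35), and their part was not tested. Cacng7 in eccentric MSN-like nuclei was 0.311, 0.333 and 0.389 against 0.234, 0.278 and 0.227 (-0.47 ± 0.17, limma adjusted p = 0.834), also without overlap. In glutamatergic neuron-like nuclei Shisa6 was 1.81, 1.59 and 1.18 against 0.863, 1.20 and 0.862 (-0.64 ± 0.19, limma adjusted p = 0.906) and Grik2 3.89, 3.81 and 3.92 against 4.44, 4.93 and 4.86 (0.29 ± 0.10, limma adjusted p = 0.907). Clusters made up very different shares of this class, cluster 21 none of it in heterozygous replicate 1 and 36.9% in heterozygous replicate 2. In cluster 21 Shisa6 stood at 6.14, 3.21 and 3.94 in wild-type libraries against 1.55 and 1.41 in heterozygous replicates 2 and 3, and Grik2 at 3.51, 2.96 and 3.74 against 5.70 and 6.85, both without overlap. In cluster 11, with too few nuclei in heterozygous replicate 3, Grik2 stood at 4.98, 3.94 and 4.43 against 5.17 and 5.64, also without overlap. The share of all genes without overlap was not computed in clusters 21 and 11. Shisa6 overlapped in cluster 11, at 0.528, 0.750 and 0.256 against 0.219 and 0.893. In clusters 9, 15 and 28, the 3 of 5 with nuclei enough in every library, both members overlapped between genotypes. With these 3 weighted equally, and clusters 21 and 11 left out, the changes were 0.03 for Shisa6 and -0.01 for Grik2. The part of the cluster mix in the class values was not tested. An unadjusted p under 0.05 was given by 1 of 11 members in cholinergic interneuron-like (4.45% of all genes) and 2 of 35 in glutamatergic neuron-like nuclei (5.22%), and 1 and 2 did not overlap, beside 8.82% and 10.6%. GABAergic interneuron-like nuclei had 0 of 30 members at that p (6.67% of all genes) and 0 without overlap (12.3%), and OPC-like nuclei 0 of 26 (4.55%) and 1 (9.91%). Leaving out 1 library at a time gave 0 (without wild-type replicate 3 or heterozygous replicate 3) to 1 member at that p in cholinergic interneuron-like nuclei (a member higher in heterozygous libraries without wild-type replicate 1 or heterozygous replicate 1 or 2) and 1 (without wild-type replicate 2 or 3) to 7 (without heterozygous replicate 1, beside 9.8% of all genes) in glutamatergic neuron-like nuclei. It gave up to 1 in GABAergic interneuron-like (without wild-type replicate 1) and up to 2 in OPC-like nuclei (without heterozygous replicate 1).

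The genotype effect was compared between classes in a joint limma model, and no member differed at an adjusted p under 0.05. Between D1 and D2 MSN-like nuclei, 0% of 12617 genes were called and 5.02% had an unadjusted p under 0.05, among them 3 of 33 members. The members of smallest p were Grin3a, with a difference of 0.55 ± 0.22 (limma adjusted p = 0.959), and Grik4, with 0.22 ± 0.09 (limma adjusted p = 0.959). Against D1 MSN-like nuclei, 1 gene that is no member was called in each of astrocyte-like (0.00977% of genes tested), endothelial-like (0.0192%) and neuroblast-like nuclei (0.0219%), and 0% in each other class compared. An unadjusted p under 0.05 was given by 2 of 31 members in astrocyte-like (5.97% of all genes), 1 of 24 in neuroblast-like (5.33%), 3 of 30 in oligodendrocyte-like (4.53%), 1 of 24 in microglia-like (6.81%) and 1 of 11 in cholinergic interneuron-like nuclei (4.63%). It was given by 6 of 33 in glutamatergic neuron-like (3.92%), 3 of 18 in committed precursor-like (6.33%), 1 of 32 in eccentric MSN-like (6.61%), 0 of 19 in endothelial-like (4.79%) and 1 of 14 in mural-like nuclei (4.65%). Grm8 differed by 1.19 ± 0.26 in neuroblast-like (limma adjusted p = 0.895), 0.86 ± 0.24 in oligodendrocyte-like (limma adjusted p = 0.958), 0.81 ± 0.31 in astrocyte-like (limma adjusted p = 0.821) and 0.89 ± 0.33 in microglia-like nuclei (limma adjusted p = 0.698). Grik1 in oligodendrocyte-like nuclei differed by -1.30 ± 0.35 (limma adjusted p = 0.958). Grin3a differed by -1.02 ± 0.29 in cholinergic interneuron-like (limma adjusted p = 0.910), -0.83 ± 0.26 in astrocyte-like (limma adjusted p = 0.821) and -0.78 ± 0.37 in neuroblast-like nuclei (limma adjusted p = 0.895). Each comparison against D1 MSN-like nuclei subtracts the same D1 change, so the differences of a member over several classes are not independent.

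Shisa6 and Grik2 in glutamatergic neuron-like nuclei differed by -0.83 ± 0.24 and 0.30 ± 0.10 (limma adjusted p = 0.9997 for both). The other 4 members at that p there were Grm8 (0.64), Grik1 (-0.64), Neto2 (-0.58) and Cacng7 (0.33), with the same adjusted p. Grm7 and Grm3 differed in committed precursor-like nuclei by -1.001 ± 0.374 and -0.55 ± 0.18 (0.706 for both), and Cacng7 and Grik4 in eccentric MSN-like nuclei by -0.37 ± 0.17 and -0.29 ± 0.15 (0.752 and 0.774). Differences for Cacng3 in microglia-like nuclei (0.82 ± 0.40), Grid1 in cholinergic interneuron-like nuclei (0.33 ± 0.21), Cacng2 and Grm3 in endothelial-like nuclei (0.33 ± 0.23 and -0.20 ± 0.16) and Shisa9 and Gria2 in mural-like nuclei (0.42 ± 0.18 and 0.23 ± 0.16) had limma adjusted p values from 0.716 to 0.965.

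No gene of 4 lists around these receptors passed the adjustment. Of 15 scaffolds of the PSD-95 type tested in D1 MSN-like nuclei, 21 genes of AMPA receptor sorting and assembly, 15 receptor-linked kinases and messengers and 4 other glutamate receptor genes, none was called in D1, D2 or all nuclei. Their median log2 changes in D1 MSN-like nuclei were 0.05, 0.08, 0.07 and 0.03, beside 0.06 for all genes. The gene of smallest p in each list was Shank3, a postsynaptic scaffold (0.20 ± 0.08, limma adjusted p = 0.467), Nsf, which acts in membrane fusion and binds GluA2 (0.20 ± 0.08, limma adjusted p = 0.446), Camk2g, a calcium-dependent kinase (0.28 ± 0.16, limma adjusted p = 0.573), and Cnih4, a cornichon (0.19 ± 0.10, limma adjusted p = 0.553). Shank3 was 0.638, 0.682 and 0.742 in wild-type and 0.776, 0.834 and 0.756 in heterozygous libraries, without overlap.

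Across the 14 class means, log2 levels of Grin2a and Grm8 were most alike (Pearson r = 0.962), followed by Grm5 and Neto1 (0.961) and Cacng3 and Grm4 (0.948). The least alike pair was Grin3a and Cnih2 (-0.669). These r values are descriptions over 14 classes that share the same 6 libraries.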

How the data were processed

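Single-nucleus libraries of 3 wild-type and 3 Celsr3 heterozygous striata were grouped by the genotype in the labels. Cell Ranger, Seurat 4.1 and mm10/GRCm38 are named, without roles, in the submitters' processing notes. The table the authors deposited holds whole numbers, used as a score (UMI values corrected for depth and then rounded). This was read from the values, since no label states it: totals per nucleus ran from 4523 to 10638 (CV 10.7%). The depth before correction is unknown, and no counting intervals were computed. Genes per nucleus ran from 1284 to 5263.

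Clustering used 2000 variable genes, 30 components, 15 neighbours and Leiden at resolution 1 (igraph 0.11.9), giving 42 clusters. Names needed 3 markers over 2-fold above other nuclei, each with a mean over 0.1. They also needed 40% of the class list to pass, or a passing marker among the cluster's top 10 genes. A cluster stayed unnamed if a rival class had more markers among those 10, or as many there with a large part of its list passing. MSN classes also needed 3 of 10 shared MSN markers above other nuclei, a limit set after the clusters were seen. Nuclei with a doublet score above 0.25, and clusters with over 40% of them, were left out (745, 1.53%).

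Levels per library and class were tested as log2(mean + 0.01) with limma 3.58.1 (trended), which understates changes of low genes. Genes needed a mean of 0.02 and a summed value of 30 per library, and Benjamini-Hochberg adjustment ran over all of them. Differences between classes used the library as a block. The code was tested on simulated data. Library values are given for members with an unadjusted p under 0.05, the 2 of smallest p for each difference between classes are named, and D1 against D2 names the 5 most extreme members each way. Members, marker lists and gene lists were chosen with earlier results of these data known. Alternatives changed the pseudocount, filter, scaling, weights, replicate block, doublets, clustering, cluster weights and libraries.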

Additional observations from a re-analysis of the deposited data

How the results depend on the processing

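In 577 recomputations, 332 values of single genes kept their direction and their side of the threshold, 5 passed it and 3 reversed. Of the counts, 233 stayed equal or close to the original, with 32 of 35 highest classes taken as close, and 4 moved. The count of called members was 0 in each population and in the D1 against D2 difference, and stayed 0 in every alternative except 4. It became 1 in D1 MSN-like nuclei with limma array weights (Cacng2, -0.48, limma adjusted p = 0.0495), where 204 genes in all were called in place of 1. Leaving out 1 library at a time gave 0 to 2 in D1 MSN-like nuclei (Cacng2 and Cacng3, without wild-type replicate 1), 0 to 1 in D2 MSN-like nuclei (Cacng3, without wild-type replicate 1) and 0 to 1 in oligodendrocyte-like nuclei (Grik1, without heterozygous replicate 3), beside 212, 135 and 3 of all genes. The causes were not tested. Directions reversed in glutamatergic neuron-like nuclei. With equal weights on 3 of the 5 clusters, Shisa6 was 0.0336 and Grik2 -0.00736. That leaves out cluster 21, where both differed without overlap in the original direction, and cluster 11, where Grik2 did. Cluster 21 had no nuclei in heterozygous replicate 1, and cluster 11 too few in heterozygous replicate 3. With so few libraries, and no share of all genes without overlap computed there, these values do not decide the direction. In the single cluster, an alternative chosen after seeing the data, Grik2 was -0.0943. Size-factor scaling moved the median of all genes in D1 MSN-like nuclei from 0.06 to 0.01 and the members from 20 higher and 13 lower to 11 and 22. Same-numbered libraries correlated at 0.266, 0.023 and 0.174 in D1 and 0.262, 0.055 and 0.181 in D2 MSN-like nuclei. Over all nuclei the values were -0.033, 0.139 and -0.074. In D1 and D2, wild-type replicates 1 and 3 correlated best with the heterozygous library of the same number. Wild-type replicate 2 correlated best with heterozygous replicate 3 (0.197 and 0.178). No label pairs the numbers, so the main test did not take them as pairs, and the correlations do not settle whether they are. With the replicate block the count of called members was 0 in D1, D2 and all nuclei, while all genes called went from 1 to 8 in D2 MSN-like nuclei. Members at an unadjusted p under 0.05 went from 3 to 4 in D1 (12.2% of all genes), 2 to 5 in D2 (10.8%) and 1 to 0 over all nuclei (9.97%) with the block. Size factors over classes and libraries kept the highest class for 32 of 35 members, and keeping doublets or clustering without the members kept it for 35. With 3 libraries a group, an exact two-sided test cannot go below 0.1.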

Other observations

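Some unnamed clusters exceeded the mean of every named class for a member, though not every cluster inside the named classes. Cluster 13 carried Neto1 at 5.96 ± 0.341 (SD, n = 6), below D2 MSN-like cluster 8 at 7.78 ± 0.620. Cluster 13 exceeded other nuclei over 2-fold for 6 D1 MSN markers but stayed unnamed under the rule on rival classes, so it counted in no MSN class. Cluster 26 carried Grik3 at 2.22 ± 0.186 (n = 5), below glutamatergic neuron-like cluster 15 at 3.87 ± 0.522 (n = 6). These clusters were singled out after their values were seen and have no test.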
